A study of Mus musculus with 8 samples.

Results

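The genes described here are 42 lysosomal genes of the mouse, chosen as a list by name: the transcription factors Tfeb and Tfe3, 6 proteases, 10 glycosidases, 4 enzymes that act on sulfated sugars, 7 other luminal proteins, 7 membrane proteins and 6 parts of the proton pump. They were read from the probe sets that carry a single gene symbol. Of the 42, 41 had such a probe set, 91 probe sets in all among 45101, and Cd63 had none. All 41 passed the low-signal filter, which kept 14267 of 18194 named genes. RNA from mouse embryonic stem cells (129X1 x 129S1 background) was hybridised to 8 Affymetrix arrays. Cells carrying a short hairpin against Top1, the DNA topoisomerase, or against p53, the tumour suppressor, were combined with mock cells at 1:4. In the shTop1 coculture and the shp53 coculture the cells lived together for 4 days, whereas for the shTop1 mix and the shp53 mix each kind was kept alone for 4 days before RNAs were joined at that ratio. Each of these 4 groups had 2 arrays. The mixes are mostly mock RNA, with knockdown RNA making up 20% of a mix, while for the cocultures 1:4 is only the ratio at the start. The share of knockdown cells in a coculture after 4 days was not measured, and in such bulk RNA a change in the number of cells of one kind and a change in RNA per cell cannot be told apart. The labels call the 2 arrays biological replicates and do not say whether they came from separate cultures or whether the mock RNA of the mixes was common to them, and p-values here speak only of spread between these particular samples. Nor do they say how many hairpins or clones each knockdown line held.

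The lysosome is the acidic compartment in which cells break down proteins, sugars, lipids and material delivered by endocytosis and autophagy. A rotary proton pump, the V-ATPase, acidifies it, soluble hydrolases do the digestion, and heavily glycosylated membrane proteins line it and carry products out. Tfeb and Tfe3 are basic helix-loop-helix factors of the MiT family. When mTORC1 is active they are phosphorylated and kept in the cytoplasm, and when it is not they enter the nucleus and bind E-box motifs near the starts of many lysosomal genes. In embryonic stem cells Tfe3 is known for holding back exit from the naive state, under the control of folliculin. Loss of one such hydrolase or membrane protein, Hexa or Npc1 for example, causes a lysosomal storage disease in people.

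The 10 embryonic stem cell markers checked here all passed the filter, with a summed signal of 116292 to 123952 per array. Signals are quantile-normalized intensities, and differences are on the scale of log2(signal + 16), coculture minus mix or shTop1 minus shp53, so changes of dim genes are understated. A single array, shTop1 coculture replicate 1, stood apart on the second principal component of all genes (32.6, against -15.5 to 3.63 on the other 7 arrays), and values without it are given where they matter. On the first component (19.9% of the variance, against 16.9% for the second) shTop1 coculture replicate 2 lay lowest. It had -26.1 there, against -12.5 to 21.1 on the other 7 arrays.

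Most lysosomal genes had somewhat more signal in coculture than in the mixes, by small amounts. Averaged over both knockdowns, 31 of 41 had a log2 difference above 0 (75.6%, against 55.3% of all 14267 genes), and their median was 0.10, against 0.022 over all genes. The range ran from -0.18 for Acp2 to 0.35 for Hexa, but Acp2 had -0.27 without shTop1 mix replicate 1 and -0.089 without shTop1 mix replicate 2. No gene passed limma's test at an adjusted p of 0.05, neither among the 41 nor among all genes (0% called), and the smallest adjusted p of a listed gene was 0.333. With an unadjusted p under 0.05 came 6 listed genes with more signal in coculture (14.6%, against 7.09% of all genes) and 0 with less (4.63% of all genes). These 6 were Hexa, Neu1, Ctsa, Glb1, Ctsb and Ctsl. The 4 coculture arrays lay above all 4 mixes for 6 of the 41 (against 5.75% of all genes) and below them for 0 (3.35% of all genes). The 6 were Hexa, Neu1, Ctsl, Asah1, Mcoln1 and Atp6v0d1.

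Array by array, 23 to 31 of the 41 genes were above their own mean on the 4 cocultures, against 10 to 19 on the 4 mixes. The median deviation was 0.015 and 0.083 in the shTop1 cocultures, against -0.082 and -0.087 in the shTop1 mixes. It was 0.11 and 0.023 in the shp53 cocultures, against -0.030 and -0.0064 in the shp53 mixes. The cocultures were thus all above the mixes in this median, and the shTop1 mixes were below the shp53 mixes. That order was not particular to the list. Over all genes the median was 0.0064 to 0.035 on the cocultures and -0.0090 to 0.0063 on the mixes. Over the other lysosomal genes it was -0.0049 to 0.093 on the cocultures and -0.051 to -0.014 on the mixes. Without shTop1 coculture replicate 1 the median difference over the list was 0.14, with 32 of 41 above 0.

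**Figure D1:**
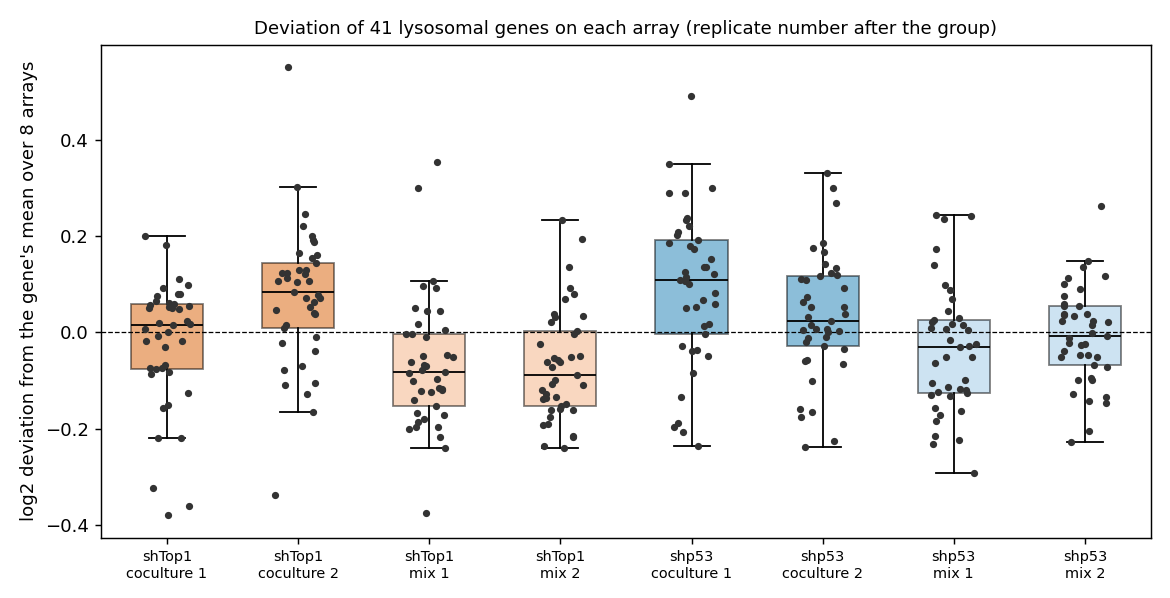
Deviation of each of the 41 lysosomal genes from its own mean over the 8 arrays, on the log2(signal + 16) scale, by array. Boxes show the median and quartiles and points are genes; the medians lie between 0.015 and 0.11 on the cocultures and between -0.087 and -0.0064 on the mixes.

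The 2 transcription factors did not run alike. Tfe3 (Entrez gene 209446) had a signal of 1363 and 1484 in the shTop1 cocultures, against 1108 and 1221 in the shTop1 mixes. In the shp53 samples it had 1100.0 and 1605 in the cocultures, against 1094 and 1294 in the mixes. The shTop1 cocultures lay above their mixes, while the shp53 cocultures were far apart and overlapped theirs. The mean log2 difference of Tfe3 was 0.22 ± 0.14 (SE, limma adjusted p = 0.564), and leaving out an shp53 coculture made it 0.36 (without replicate 1) or 0.087 (without replicate 2). Tfeb (Entrez gene 21425) had a signal of 381 and 391 in the shTop1 cocultures, against 349.9 and 391 in the shTop1 mixes, which overlapped. With shp53 its cocultures had 358 and 324, against 451 and 415 in the shp53 mixes, with both cocultures below both mixes. Its log2 difference was 0.059 ± 0.11 with shTop1 and -0.33 ± 0.11 with shp53 (SE, limma adjusted p = 0.911 and 0.717). These are levels of RNA, and where in the cell the proteins were was not measured.

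The motif these factors bind is present near the starts of many of the listed genes, and the stretches below are shown because they hold its 8-base form. RefSeq windows on the GRCm38.p6 build, from 250 bases before to 50 bases after a gene's start, were found for 35 of the 42 genes. The 6-base E-box CACGTG, which reads the same on both strands, occurred in 14 of these 35 (40.0%), in 15 of 62 other lysosomal genes (24.2%) and in 2187 of 27025 genes with a window (8.09%). The 8-base TCACGTGA, which contains it, occurred in 8 of the 35 (22.9%), in 4 of the 62 (6.45%) and in 1.12% of all. The 10-base palindrome with a further G before and C after the 8 bases occurred in 1 of the 35, Cln3, and in 0.370% of all. The 6 with the 8-base form that had the smallest p in the mean coculture comparison are printed here 5′ to 3′ on the gene's strand, with the 8-base motif in capitals and at most 30 bases after the start:
Ctsa (chr2:164833714-164833802, plus strand): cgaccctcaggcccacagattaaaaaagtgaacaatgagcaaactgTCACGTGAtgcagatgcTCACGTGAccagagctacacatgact
Ctsd (chr7:142387873-142387972, minus strand): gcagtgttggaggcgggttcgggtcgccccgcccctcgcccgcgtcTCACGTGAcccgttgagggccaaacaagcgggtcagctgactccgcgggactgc
Mcoln1 (chr8:3500427-3500526, plus strand): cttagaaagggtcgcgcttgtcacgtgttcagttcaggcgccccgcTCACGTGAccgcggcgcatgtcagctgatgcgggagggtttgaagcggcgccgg
Cln3 (chr7:126583305-126583404, minus strand): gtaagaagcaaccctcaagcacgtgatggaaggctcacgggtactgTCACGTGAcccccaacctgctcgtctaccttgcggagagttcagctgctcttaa
Atp6v0d1 (chr8:105566035-105566114, minus strand): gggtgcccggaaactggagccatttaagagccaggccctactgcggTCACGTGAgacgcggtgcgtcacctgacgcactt
Gla (chrX:134601147-134601255, minus strand): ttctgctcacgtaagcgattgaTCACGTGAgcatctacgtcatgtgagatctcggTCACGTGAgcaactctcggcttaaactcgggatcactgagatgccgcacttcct
Ctsa and Gla hold the motif at 2 places each, and in Atp6v0d1 its first base lies 4 bases before the start. The other 2 genes with the 8-base form were Atp6v1a and Atp6v0e. Coculture differences of genes with and without the motif are given as a description and were not tested against each other. Among the genes with a window and a signal, the 8 with TCACGTGA had a median of 0.11 with 5 above 0, and the 26 without it had a median of 0.11 with 20 above 0. With the shorter CACGTG the median was 0.15 in 14 genes, 10 of them above 0, against 0.10 in the 20 without, 15 of them above 0. A match is a description of the sequence and not a sign that a factor was bound in these cells.

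**Figure D2:**
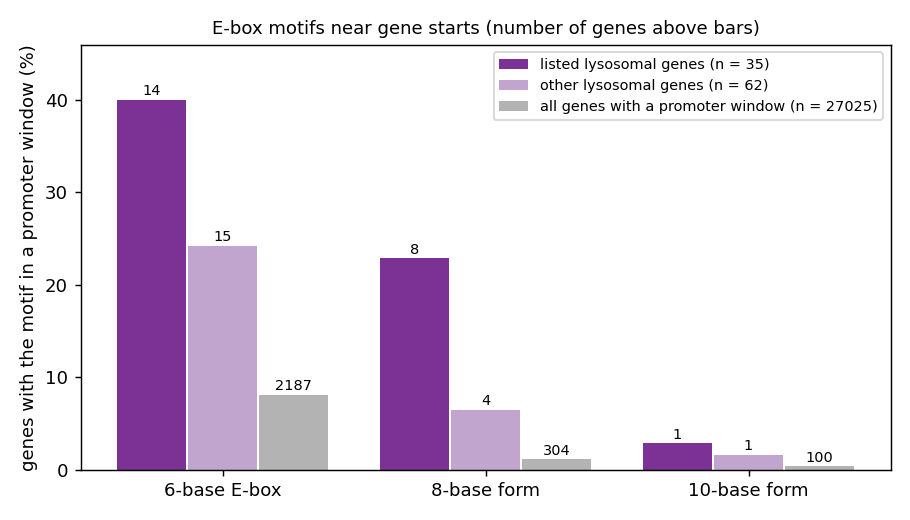
Share of genes whose RefSeq window, 250 bases before to 50 bases after the start, holds the 6-base, 8-base or 10-base E-box form, as bars in percent with the number of genes above each. The listed genes (n = 35) stand at 40.0%, 22.9% and 2.86%, other lysosomal genes (n = 62) at 24.2%, 6.45% and 1.61%, and all genes (n = 27025) at 8.09%, 1.12% and 0.370%.

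The lysosomal proteases were the role in which every gene lay on 1 side. All 6 had a mean log2 difference above 0 with each of 3 scalings, with a median of 0.19. The median was 0.11 with all probe sets averaged, where Ctsa was at -0.020. Ctsa (Entrez gene 19025), the protective protein that keeps beta-galactosidase and neuraminidase stable, had a signal of 2387 and 2740.1 in the shTop1 cocultures, against 2125 and 2421 in the shTop1 mixes. For shp53 the cocultures had 2965 and 2839, against 2348 and 2397 in the shp53 mixes. The shp53 groups were apart and the shTop1 groups overlapped, and the mean log2 difference was 0.23 ± 0.084 (SE, limma adjusted p = 0.391). A much dimmer second probe set of Ctsa (mean signal 96.8) had -0.27 ± 0.26 (SE). Ctsl (Entrez gene 13039), cathepsin L, a cysteine protease, had 22851 and 23464 in the shTop1 cocultures, against 19989 and 18970.2 in the shTop1 mixes. Its signal in the shp53 cocultures was 22329 and 22405, against 19926 and 22002 in the shp53 mixes. All 4 cocultures were above all 4 mixes, narrowly in the shp53 samples, and the mean log2 difference was 0.17 ± 0.070 (SE, limma adjusted p = 0.422). Averaged with a second probe set under the filter, Ctsl had 0.043, and -0.19 with shTop1.

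Tpp1 (Entrez gene 12751), the tripeptidyl peptidase lost in a childhood neuronal ceroid lipofuscinosis, had 2622 and 3187 in the shTop1 cocultures, against 2689 and 2715 in the shTop1 mixes. The shp53 cocultures had 3155 and 3233, against 2959.7 and 2923 in the shp53 mixes. The shp53 groups were apart, and the shTop1 cocultures lay on both sides of their mixes. The mean log2 differences were 0.25 ± 0.10 for the cysteine protease Ctsb, 0.21 ± 0.092 for the aspartic protease Ctsd, 0.11 ± 0.084 for Tpp1 and 0.10 ± 0.068 for the carboxypeptidase Ctsz (SE). Tpp1 had 0.18 without shTop1 coculture replicate 1 and 0.038 without shTop1 coculture replicate 2. All of these proteases had both shp53 cocultures above both shp53 mixes (6 of 6, against 20.9% of all genes), and 3 of 6 were apart in the same way with shTop1 (24.5% of all genes).

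Among the glycosidases, which trim sugars from glycoproteins and glycolipids, 8 of 10 had a mean log2 difference above 0, with a median of 0.14. Without shTop1 mix replicate 1 that median was 0.063, and over all alternatives 6 to 8 were above 0. Hexa (Entrez gene 15211), the alpha subunit of beta-hexosaminidase, whose loss causes Tay-Sachs disease, had the smallest p of the list. Hexa had a signal of 4326 and 4765 in the shTop1 cocultures, against 3638 and 3531 in the shTop1 mixes. In the shp53 samples it had 4769 and 5027 in the cocultures, against 3828 and 3764 in the mixes. Every coculture exceeded every mix, and the replicates of a group differed by less than coculture and mix did within each knockdown. The mean log2 difference was 0.35 ± 0.070 (SE), a ratio of 1.28 in signal plus 16, with 0.34 for shTop1 and 0.37 for shp53. By p it ranked 93 among 14267 genes, with a limma adjusted p of 0.333. Leaving out 1 array kept the difference between 0.32 and 0.39. With trended and robust variances Hexa was the only listed gene called (limma adjusted p = 0.0430).

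Neu1 (Entrez gene 18010), the lysosomal sialidase, had a signal of 739 and 840.2 in the shTop1 cocultures, against 639 and 650.3 in the shTop1 mixes. In the shp53 cocultures it had 895 and 745, against 645 and 718 in the shp53 mixes. All 4 cocultures lay above all 4 mixes, and the mean log2 difference was 0.27 ± 0.094 (SE, limma adjusted p = 0.38). With the mean of its 3 probe sets, of which the other 2 had mean signals of 33.8 and 22.2, it was 0.062. Glb1 (Entrez gene 12091), the acid beta-galactosidase, had 1162 and 1252 in the shTop1 cocultures, against 991 and 966 in the shTop1 mixes. With shp53 its cocultures had 1324 and 1125, against 1132 and 1084 in the shp53 mixes. The shTop1 groups were apart and the shp53 groups overlapped, with a mean log2 difference of 0.22 ± 0.082 (SE, limma adjusted p = 0.399). Neu1, Glb1 and Ctsa are the 3 proteins of a lysosomal complex of sialidase, galactosidase and protective protein.

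The other glycosidases lay closer to 0 relative to their error. Naglu (Entrez gene 27419), which removes N-acetylglucosamine from heparan sulfate, was dim, with 101 and 121 in the shTop1 cocultures, against 89.2 and 127 in the shTop1 mixes. For shp53 the cocultures had 176 and 133, against 109 and 124 in the shp53 mixes, and only the shp53 groups were apart. The mean log2 differences were 0.20 ± 0.14 for Naglu, 0.20 ± 0.091 for the glycogen-degrading Gaa, 0.079 ± 0.11 for the alpha-galactosidase Gla, 0.027 ± 0.072 for the fucosidase Fuca1 and 0.00083 ± 0.095 for the alpha-mannosidase Man2b1 (SE). Naglu had 0.090 without shTop1 mix replicate 1 and 0.31 without shTop1 mix replicate 2. Below 0 were the beta-glucuronidase Gusb (-0.12 ± 0.074) and the beta-mannosidase Manba (-0.16 ± 0.078, SE). Manba was the only gene of the list with both cocultures below both mixes in each knockdown (2.44% of the list, against 5.72% of all genes), while 8 genes had both above in each (19.5%, against 8.81% of all genes).

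**Figure D3:**
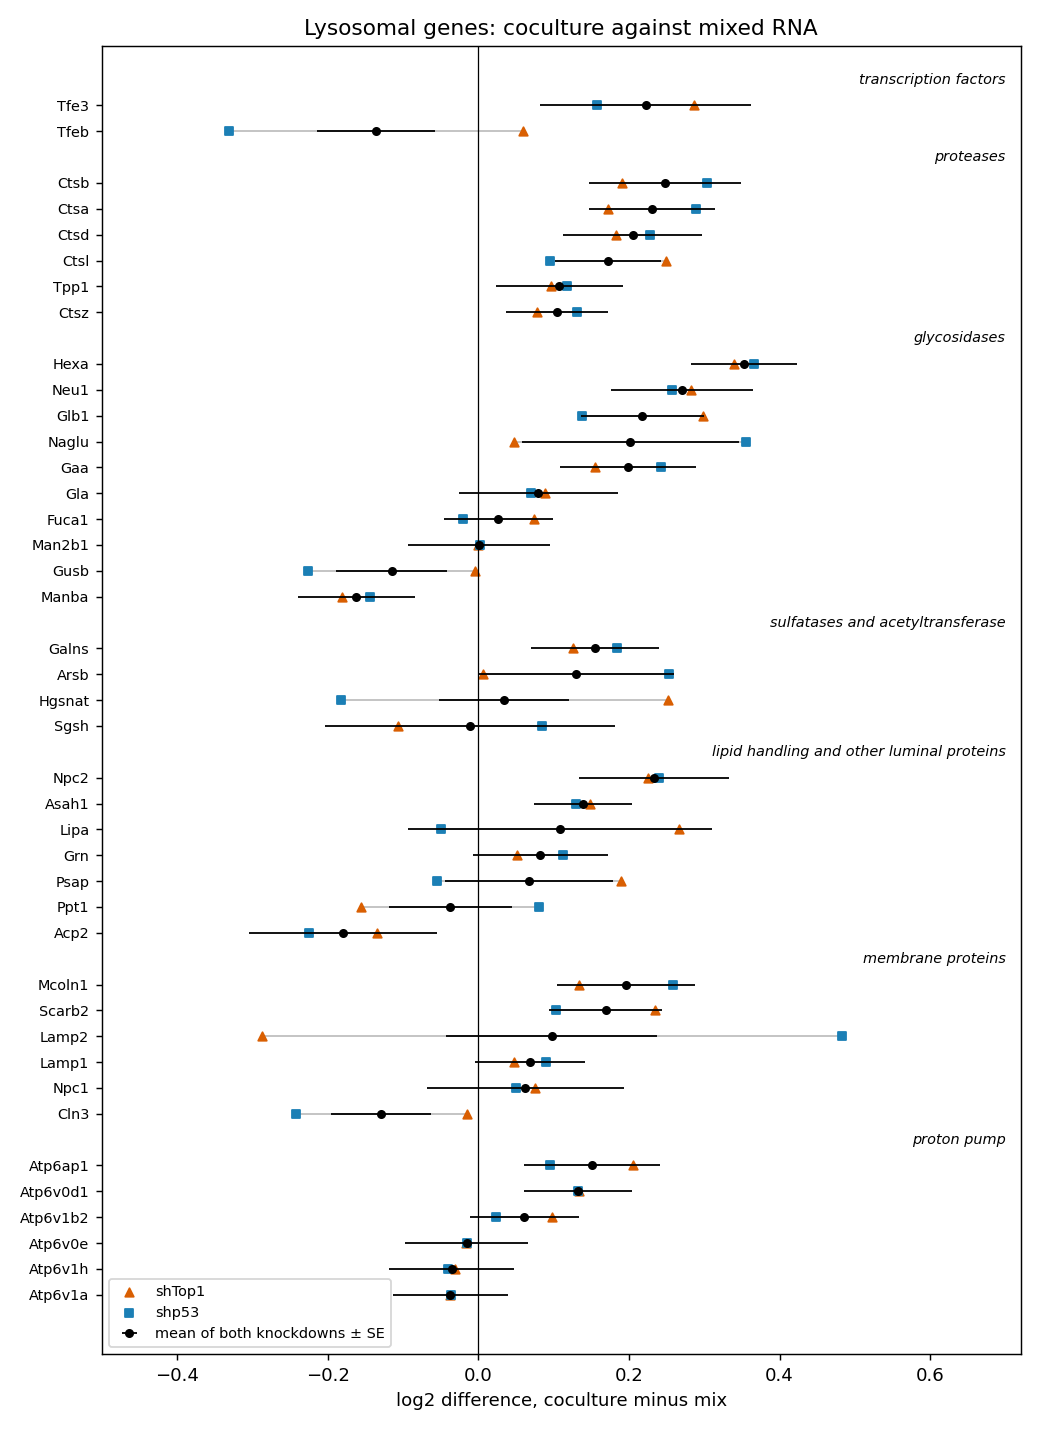
Log2 difference, coculture minus mix, of the 41 lysosomal genes by role. Black points are the mean of both knockdowns with its SE, triangles shTop1 and squares shp53; proteases lie to the right of 0 throughout, the proton pump lies close to it, and Lamp2 has the knockdowns furthest apart, at -0.29 with shTop1 and 0.48 with shp53.

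The enzymes that act on sulfated sugars had a median of 0.082, with 3 of 4 above 0. The median ran from 0.013 with all of a gene's probe sets averaged to 0.15 without shp53 mix replicate 2, with 2 to 4 above 0 over the alternatives. Hgsnat (Entrez gene 52120), the membrane acetyltransferase of heparan sulfate breakdown, had 475 and 491 in the shTop1 cocultures, against 403 and 403 in the shTop1 mixes. Its signal in the shp53 cocultures was 441 and 418, against 442 and 543 in the shp53 mixes, the first mix nearly level with a coculture. The groups were apart in both knockdowns and in opposite directions, which was so for 1 gene of the 41 (2.44%, against 3.55% of all genes). Arsb (Entrez gene 11881), arylsulfatase B, was dim, with 76 and 51.4 in the shTop1 cocultures, against 66.5 and 58.6 in the shTop1 mixes. The shp53 cocultures had 80.9 and 89, against 60.5 and 77.6 in the shp53 mixes, and the shTop1 groups overlapped. The mean log2 differences were 0.15 ± 0.085 for the sulfatase Galns, 0.13 ± 0.13 for Arsb, 0.034 ± 0.087 for Hgsnat and -0.011 ± 0.19 for the sulfamidase Sgsh (SE). Arsb had 0.017 without shTop1 coculture replicate 1 and 0.24 without shTop1 coculture replicate 2, and -0.036 with its probe sets averaged. Galns had 0.099 without shp53 mix replicate 1 and 0.030 with its probe sets averaged.

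Of the lipid-handling and other luminal proteins, 5 of 7 were above 0, with a median of 0.082. The median was 0.043 without shTop1 coculture replicate 2 and 0.14 with median centring (0.068 over all genes), and 4 to 6 were above 0 over the alternatives. The sterol carrier Npc2, which hands cholesterol to Npc1, had 0.23 ± 0.10, and its second bright probe set had 0.31 ± 0.10 (SE). Asah1, the acid ceramidase, had 0.14 ± 0.065 (SE), with a signal of 5773 and 5861 in the shTop1 cocultures, against 5399.8 and 5099.7 in the shTop1 mixes. It had 6149 and 6155 in the shp53 cocultures, against 5730.0 and 5515 in the shp53 mixes, so all 4 cocultures were above all 4 mixes. Values were 0.11 ± 0.20 for the acid lipase Lipa, 0.082 ± 0.090 for progranulin (Grn), 0.067 ± 0.11 for the saposin precursor Psap, -0.037 ± 0.082 for the palmitoyl-protein thioesterase Ppt1 and -0.18 ± 0.12 for the acid phosphatase Acp2 (SE). Ppt1 turned to 0.011 with median centring, and Lipa had 0.34 without shTop1 coculture replicate 1 and -0.12 without shTop1 coculture replicate 2. Grn had 0.14 without shp53 mix replicate 1 and 0.027 without shp53 mix replicate 2. Npc2 had 0.15 without shTop1 coculture replicate 2.

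Among the membrane proteins 5 of 6 were above 0, with a median of 0.083, which was 0.15 with median centring (0.068 over all genes). Scarb2 (Entrez gene 12492), which escorts beta-glucocerebrosidase to the lysosome, had 2688 and 2902 in the shTop1 cocultures, against 2386 and 2356 in the shTop1 mixes. In the shp53 cocultures it had 2783 and 2634, against 2390.2 and 2659 in the shp53 mixes. The shTop1 groups were apart and the shp53 groups overlapped, with a mean log2 difference of 0.17 ± 0.074 (SE). A second probe set of Scarb2 with a mean signal of 1597 had 0.051 ± 0.081 (SE). Cln3 (Entrez gene 12752), a membrane protein lost in juvenile neuronal ceroid lipofuscinosis, had 308 and 307 in the shTop1 cocultures, against 318 and 304 in the shTop1 mixes. With shp53 its cocultures had 257 and 264, against 300.5 and 322 in the shp53 mixes. Both shp53 cocultures were below both mixes and the shTop1 groups overlapped, with a mean log2 difference of -0.13 ± 0.067 (SE). The calcium channel Mcoln1 had 0.20 ± 0.092, with all 4 cocultures above all 4 mixes, but a second probe set of it with a mean signal of 509 had 0.011 ± 0.10 (SE). The abundant coat protein Lamp1 had 0.069 ± 0.074 and the cholesterol exporter Npc1 0.062 ± 0.13 (SE). Without shp53 mix replicate 2 Npc1 had -0.056 and Lamp1 0.038. Mcoln1 had 0.12 without shp53 coculture replicate 1 and 0.051 with its probe sets averaged.

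Lamp2 (Entrez gene 16784), the other coat protein of the lysosomal membrane, had 1866 and 2618 in the shTop1 cocultures, against 2997 and 2437 in the shTop1 mixes. For shp53 the cocultures had 3105 and 2644, against 1986 and 2109 in the shp53 mixes. The shTop1 groups overlapped, with replicates far apart, and both shp53 cocultures lay above both mixes. Its 4 probe sets did not give 1 answer. With shTop1 the one used had -0.29 and the next brightest 0.10, and with shp53 they had 0.48 and 0.17. The other 2 had -0.12 and -0.11 with shTop1, and 0.45 and 0.022 with shp53.

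**Figure D4:**
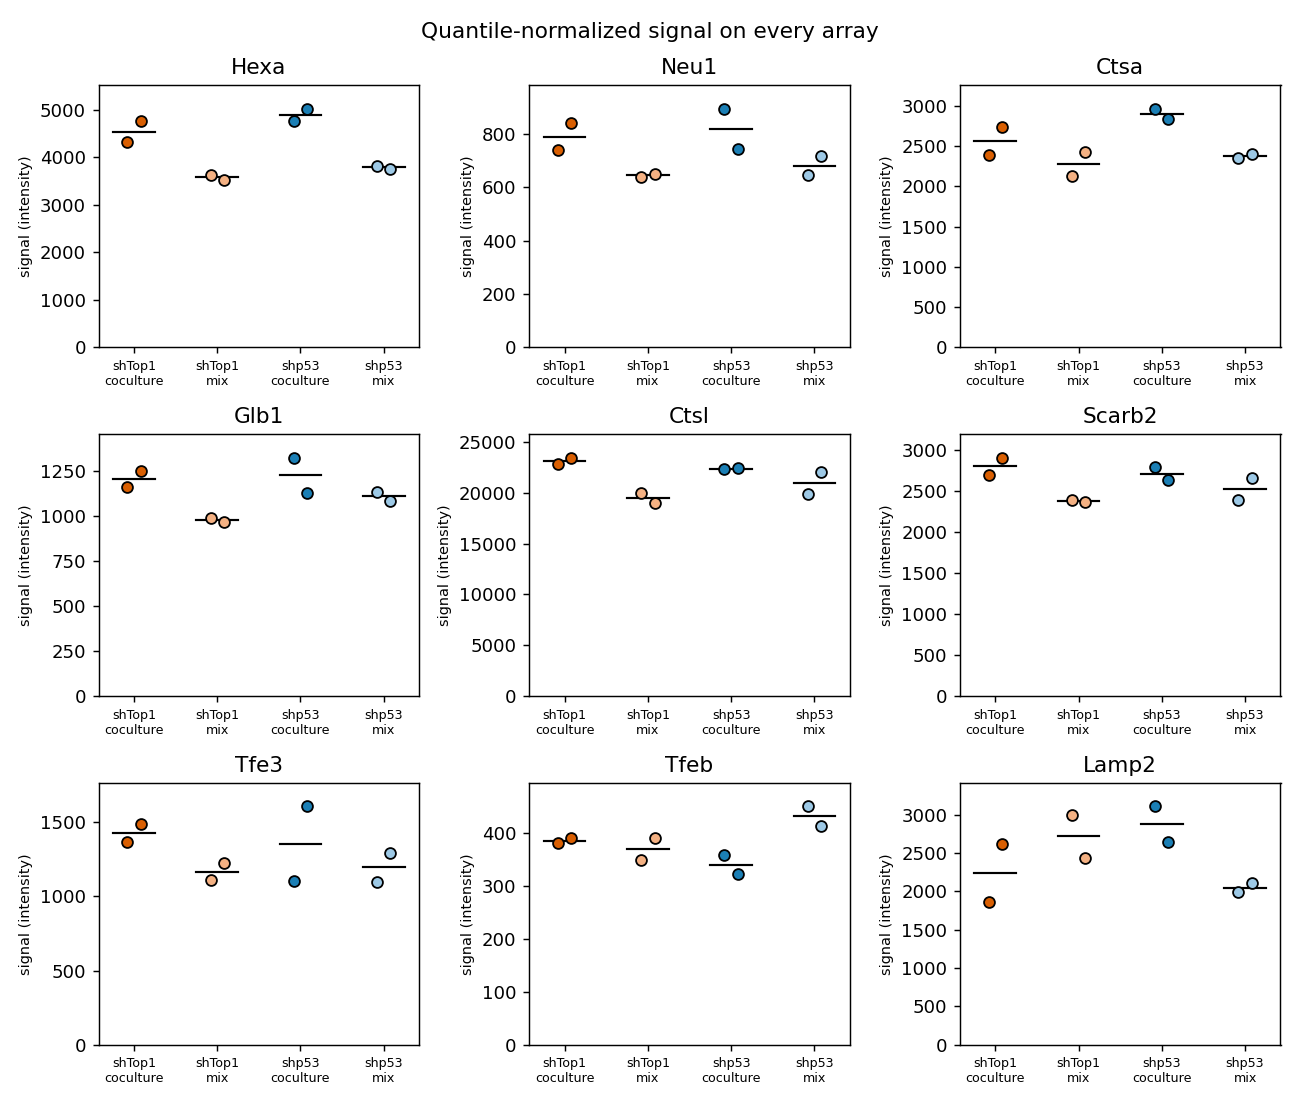
Quantile-normalized signal (linear intensity, from 0) of 9 lysosomal genes on every array, by group; points are arrays and lines are group means (n = 2 arrays each). Hexa, Neu1 and Ctsl have all 4 cocultures above all 4 mixes, whereas for Tfe3, Tfeb and Lamp2 the groups overlap in at least 1 knockdown.

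The proton pump lay close to 0. Its 6 genes had a median of 0.023, with 3 above and 3 below 0. With median centring all 6 were above 0 with a median of 0.084, but all genes then had a median of 0.068, with 64.5% above 0. Without shTop1 mix replicate 2 the median was -0.00045. The membrane-sector subunit Atp6v0d1 had 0.13 ± 0.072 and the accessory subunit Atp6ap1 0.15 ± 0.090 (SE). Atp6v0d1 had a signal of 6678 and 7013 in the shTop1 cocultures, against 6219 and 6256 in the shTop1 mixes. It had 7501 and 6683 in the shp53 cocultures, against 6511 and 6412 in the shp53 mixes, so its cocultures all lay above its mixes. The subunits of its cytosolic sector had 0.061 ± 0.072 for Atp6v1b2, -0.036 ± 0.083 for Atp6v1h and -0.037 ± 0.077 for Atp6v1a, and the membrane-sector subunit Atp6v0e had -0.016 ± 0.081 (SE). The second bright probe set of Atp6v1a had 0.074, on the other side of 0. Atp6ap1 had 0.083 without shp53 coculture replicate 1, and Atp6v1b2 0.023 without shTop1 mix replicate 2.

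Where a gene had further probe sets that passed the filter, some had an opposite sign in the mean comparison. They were 1 each for Arsb (-0.23), Atp6v1b2 (-0.047), Ctsa, Neu1 (-0.39), Lamp2 (-0.044), Lipa (-0.13), Mcoln1 (-0.054), Ppt1 (0.10), Atp6v1a and Ctsb (-0.18), and 2 for Fuca1 (-0.0081 and -0.23). For Sgsh the second one was level with 0.

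Taken one knockdown at a time, the list looked alike in direction. With shTop1, 30 of 41 genes had a difference above 0 (73.2%, against 55.6% of all genes), with a median of 0.097, against 0.030 over all genes. Both shTop1 cocultures lay above both mixes for 16 genes (39.0%, against 24.5% of all genes) and below for 1 (2.44%, against 16.9%). Without shTop1 coculture replicate 1 the median was 0.16. With shp53, 29 of 41 were above 0 (70.7%, against 53% of all genes), with a median of 0.095, against 0.014 over all genes. Both shp53 cocultures lay above both mixes for 18 genes (43.9%, against 20.9% of all genes) and below for 6 (14.6%, against 17.1%). With median centring 36 of 41 (87.8%, against 63.2% of all genes) were above 0 with shTop1 and 35 of 41 (85.4%, against 62.1%) with shp53. In neither comparison was any gene called (0% of all genes), and the smallest adjusted p of the list was 0.574 with shTop1 and 0.685 with shp53, Hexa in both. At an unadjusted p under 0.05 stood 3 genes with shTop1, all with more signal in coculture (7.32%, against 5.12% of all genes) and 0 with less (3.08% of all genes), namely Hexa, Glb1 (0.30) and Ctsl (0.25, but -0.19 with its probe sets averaged). Scarb2, the fourth by p, had 0.24, and its second probe set 0.081. With shp53 there were 2 with more signal in coculture (4.88%, against 3.87% of all genes), Hexa and Lamp2 (0.48), and 2 with less (4.88%, against 2.99%), Tfeb (-0.33) and Cln3 (-0.24).

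The difference between the knockdowns' coculture effects, shTop1 minus shp53, was tested directly. It was not called for any of the 41 genes or of all genes (0%), and 20 of 41 were above 0 (48.8%, against 51.5% of all genes), with a median of -0.0016. At an unadjusted p under 0.05 stood Lamp2 (-0.77 ± 0.28), Hgsnat (0.43 ± 0.17) and Tfeb (0.39 ± 0.16), each with an adjusted p of 1.00 (SE). That is 2 genes above 0 (4.88%, against 2.63% of all genes) and 1 below (2.44%, against 1.68%). These counts hold for the probe set used for each gene. A further probe set of Lipa over the filter (mean signal 170) had a difference of 0.88 ± 0.22 (SE), with 0.54 for shTop1 and -0.34 for shp53. The one used for Lipa had 0.32 ± 0.42, and the remaining one -0.11 ± 0.21 (SE, each probe set fitted by itself). The separate coculture differences of Hgsnat were 0.25 ± 0.12 with shTop1 and -0.18 ± 0.12 with shp53 (SE). Cln3 came next, with 0.23 ± 0.13 (SE). For Hexa the difference was -0.026 ± 0.14 (SE). Without shTop1 coculture replicate 1 the median over the list was 0.043 and Lamp2 had -0.53, and without shp53 mix replicate 2 Hgsnat had 0.29.

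Between the knockdowns over both conditions, shTop1 minus shp53, most of the list lay slightly below 0. In all 32 of 41 were below 0 and 9 above (48.7% of all genes were above), with a median of -0.050, against -0.0036 over all genes. But with median centring the list's median was 0.024 with 26 above 0 (63.4%, against 66.4% of all genes, whose median was 0.052). No gene was called (0% of all genes), and 0 of the 41 had an unadjusted p under 0.05 in either direction (2.4% of all genes above 0 and 2.29% below). That holds for the probe set used for each gene. Some further probe sets over the filter lay further from 0. Among them were Gla (0.42 ± 0.13) and Atp6v1b2 (0.24 ± 0.086) above it, and Lipa (-0.32 ± 0.11) and the dim one of Fuca1 (-0.75 ± 0.24, SE) below it. For none of the 41 did the 4 shTop1 arrays lie apart from the 4 shp53 arrays (1.02% of all genes above and 1.07% below). The smallest p belonged to Naglu (-0.26 ± 0.14), Arsb (-0.23 ± 0.13), Cln3 (0.11 ± 0.067) and Tpp1 (-0.13 ± 0.084), all with a limma adjusted p of 0.999 (SE). Tpp1 had -0.053 with median centring. Without shTop1 coculture replicate 1 Tpp1 had -0.062 and without shTop1 coculture replicate 2 Arsb had -0.12, while Naglu had -0.15 without shTop1 mix replicate 1.

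Of 82 further lysosomal genes, 71 were kept, and 49 of these had a mean coculture difference above 0 (69.0%), with a median of 0.064. None was called, and 8 had an unadjusted p under 0.05 with more signal in coculture (11.3%, against the 7.09% of all genes) and 3 with less (4.23%, against 4.63%). The hydrolases and activators had a median of 0.12 with 14 of 19 above 0, the membrane proteins 0.10 with 11 of 15, further pump subunits 0.064 with 10 of 13, the sorting machinery 0.024 with 7 of 11, and the MiT factors with their Rag and folliculin regulators 0.0068 with 7 of 13. For the hydrolases and activators it was 0.028 with all of a gene's probe sets averaged and 0.20 without shp53 coculture replicate 2. The median of the sorting machinery turned to -0.0099 without shp53 coculture replicate 2, and that of the MiT group to -0.024 without shp53 mix replicate 2. With median centring all 71 had a median of 0.14, against 0.068 over all genes. Gm2a, the activator protein that presents ganglioside to beta-hexosaminidase, had a signal of 1204 and 1271 in the shTop1 cocultures, against 953 and 966 in the shTop1 mixes. It had 1338 and 1146 in the shp53 cocultures, against 994 and 908 in the shp53 mixes. Like its partner Hexa, it had all 4 cocultures above all 4 mixes, with 0.37 ± 0.082 (SE). Lgmn, the asparaginyl endopeptidase, had 0.36 ± 0.079 and the membrane protein Cd68 0.38 ± 0.085 (SE), both also with every coculture above every mix. Nagpa, the uncovering enzyme that exposes the mannose 6-phosphate tag for sorting, had -0.48 ± 0.090 (SE), with 177 and 178 in the shTop1 cocultures, against 203 and 232 in the shTop1 mixes, and 189 and 168 in the shp53 cocultures, against 325 and 276 in the shp53 mixes. All its cocultures lay below all its mixes. The MiT factor Tfec had -0.40 ± 0.10 (SE). The limma adjusted p was 0.333 for Gm2a, Lgmn, Cd68 and Nagpa and 0.345 for Tfec.

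Markers of the stem cells themselves and of other cells that such cultures could hold were read beside these genes. Of the 10 embryonic stem cell markers 7 had a mean coculture difference above 0, with a median of 0.061. At an unadjusted p under 0.05 were 2, Fgf4 (0.21 ± 0.083) above 0 and Zfp42 (-0.28 ± 0.10, SE) below it. Of all genes 7.09% were above 0 and 4.63% below it at that p. Nanog had 0.20 ± 0.11 and Pou5f1 0.11 ± 0.072, while Sox2 had -0.29 ± 0.12 and Klf4 -0.15 ± 0.079 (SE). All 10 primitive endoderm markers passed the filter and had a mean coculture difference above 0. Their median was 0.13, with only Sparc (0.19 ± 0.073, SE) at an unadjusted p under 0.05. Their summed signal was 56397 to 59687 in the shTop1 cocultures, against 52879 to 53356 in the shTop1 mixes. It was 59550.4 to 62987 in the shp53 cocultures, against 55099.6 to 55693 in the shp53 mixes. Of 10 fibroblast markers, 5 passed, all 5 above 0 with a median of 0.30. Summed over all 10, those under the filter included, the signal was 748 to 769.8 in the shTop1 cocultures, against 536 to 652 in the shTop1 mixes. This sum was 743 to 819.9 in the shp53 cocultures, against 619 to 680.2 in the shp53 mixes, and Col3a1, Dcn, Lum, Postn and Twist2 were under the filter. At an unadjusted p under 0.05 were 2 fibroblast markers, Thy1 (0.35 ± 0.089) and Fbln2 (0.30 ± 0.076, SE), both with every coculture above every mix. Of 10 macrophage markers only 4 passed, with 3 above 0, a median of 0.32 and Adgre1 (0.51 ± 0.21, SE) at an unadjusted p under 0.05, and Ptprc, Cd14, Tyrobp, C1qa, C1qb and Itgam were under the filter. Summed over all 10 macrophage markers, those under the filter included, the signal was 251 to 317 in the shTop1 cocultures, against 253 to 295 in the shTop1 mixes. It was 291 to 399.6 in the shp53 cocultures, against 219.6 to 360.4 in the shp53 mixes. The part that any of these cell types has in the lysosomal differences was not tested.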

How the data were processed

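RNA of 8 samples was measured on Affymetrix arrays, per the labels. The deposited table gives 1 linear intensity for each probe set on each array. Their mean without the highest and lowest 2% was about 500.003 on every array, which shows that the authors scaled the arrays to 1 trimmed mean. The summarising software was not given in the sources used here.

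Symbols came from the platform annotation (34958 probe sets with 1, 932 with several, 9211 not listed) and were updated through gene identifiers (RefSeq, GRCm38.p6). After quantile normalization, log2(intensity + 16) was used. The brightest probe set on average stood for its gene, if it reached the 30th percentile over probe sets, which was a signal of 22.1. Group means over all 8 arrays were fitted with limma 3.58.1 (R 4.3.3, lmFit and eBayes without a trend, 4 residual degrees of freedom). P-values are two-sided and Benjamini-Hochberg adjusted over 14267 genes, with a threshold of 0.05. The fit was tested on simulated data. The number of arrays limits the precision.

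The listed genes, the further gene lists and the tests were chosen with earlier results of these data known. Values on every array are given for Tfeb, Tfe3, Hexa and the 4 listed genes with the smallest p in each of 5 comparisons, with Asah1 and Atp6v0d1 added after their values were seen. Of the further lysosomal genes, the 5 with the smallest p in the mean coculture comparison and 3 in each other comparison are named. Alternatives were 2 other scalings, no filter and a stricter one at the 50th percentile, other handling of probe sets, pseudocounts of 1 and 64, trended and robust variances, fits to the compared groups alone, a replicate block, and leaving out each array.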

Additional observations from a re-analysis of the deposited data

Results flagged for a closer look

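Hgsnat was singled out because its 2 knockdowns ran in opposite directions without overlap. Both shTop1 cocultures lay above both shTop1 mixes, and both shp53 cocultures lay below both shp53 mixes, the nearest of these 441 against 442. The difference of its coculture effects was 0.43 on the log2 scale (unadjusted p under 0.05, limma adjusted p = 1.00 over all genes). Such opposite separation occurred in 3.55% of all genes, and Hgsnat was the 1 gene of 41 that showed it. Groups of 2 arrays are too small for a test of single outlying arrays, so none was made.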

How the results depend on the processing

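No listed gene was called in any comparison or setting, except Hexa in the mean coculture comparison with trended and robust variances, where limma called 1 listed gene among 31 genes. The same variances called 3 genes with shTop1 and 1 with shp53, none of them listed. The list's median stayed above 0 in every setting for the mean, shTop1 and shp53 coculture comparisons. It moved by more than the spread between replicate arrays (0.038) with median centring, to 0.16 (mean), 0.17 (shTop1) and 0.16 (shp53), where the median of all genes was 0.068, 0.076 and 0.059. There 35, 36 and 35 of 41 genes were above 0 (85.4%, 87.8% and 85.4%, against 64.5%, 63.2% and 62.1% of all genes). With all of a gene's probe sets averaged the list's median was 0.059 (mean) and 0.048 (shTop1). For shTop1 against shp53 median centring turned it to 0.024 (63.4% above 0, and 66.4% of all genes). Leaving out 1 array, it ranged from 0.083 to 0.14 (mean), 0.066 to 0.16 (shTop1), 0.076 to 0.13 (shp53), -0.031 to 0.043 (difference of the effects) and -0.068 to -0.026 (shTop1 against shp53), and the upper ends for the mean, shTop1 and the difference came without shTop1 coculture replicate 1. The causes were not tested.

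Single genes changed sign, most of them near 0 but also Ctsa (0.23), Ctsl with shTop1 (0.25) and Arsb (0.13). With median centring these were Ppt1 (0.011), Atp6v0e (0.044), Atp6v1a (0.026) and Atp6v1h (0.035) in the mean comparison and Tfeb (0.025) for shTop1 against shp53. With the mean of all probe sets they were Ctsa (-0.020), Gla (-0.031), Fuca1 (-0.024), Arsb (-0.036) and Atp6v1a (0.019), and Ctsl with shTop1 (-0.19), whose second probe set has a mean signal of 16.3. Leaving out 1 array, the mean comparison crossed 0 for Atp6v0e (-0.069 to 0.038), Atp6v1a (-0.091 to 0.016), Atp6v1h (-0.082 to 0.011), Fuca1 (-0.0044 to 0.058), Gla (-0.0022 to 0.16), Hgsnat (-0.038 to 0.11), Lamp2 (-0.024 to 0.22), Lipa (-0.12 to 0.34), Man2b1 (-0.081 to 0.082), Npc1 (-0.056 to 0.18), Ppt1 (-0.084 to 0.010), Psap (-0.013 to 0.15) and Sgsh (-0.17 to 0.14). So did Tfe3 with shp53 (-0.11 to 0.43), in the difference of the effects (-0.14 to 0.40) and for shTop1 against shp53 (-0.10 to 0.17), Tfeb with shTop1 (-0.018 to 0.14) and for shTop1 against shp53 (-0.060 to 0.018), and Hexa in the difference of the effects (-0.10 to 0.043).

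The values showed no strong pairing by replicate number: deviations of same-numbered arrays from their group means correlated at -0.0067 to 0.051 across genes. Such correlations cannot show whether same-numbered samples were handled together. With the replicate block the list's median was unchanged at 0.10 in the mean comparison, 0 genes were called, and 4 listed genes had an unadjusted p under 0.05 in place of 6.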

Other observations

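Some of the further lysosomal genes had coculture effects that differed between the knockdowns at an unadjusted p under 0.05, with an adjusted p of 1.00 throughout. Tfec, a MiT factor, had a signal of 246 and 230.0 in the shTop1 cocultures, against 234 and 263 in the shTop1 mixes, and 202 and 154 in the shp53 cocultures, against 303 and 311 in the shp53 mixes. Its difference of effects, shTop1 minus shp53, was 0.69 ± 0.21 (SE). Like Tfeb, it was below its mixes on both shp53 cocultures and overlapped them with shTop1. The sorting receptor Sort1 had 569.7 and 467 in the shTop1 cocultures, against 420.0 and 403 in the shTop1 mixes, and 386 and 432 in the shp53 cocultures, against 526 and 496 in the shp53 mixes, with a difference of 0.63 ± 0.18 (SE). The pump subunit Atp6v0e2 ran the other way, with 222 and 211 in the shTop1 cocultures, against 268 and 223 in the shTop1 mixes, and 229 and 218 in the shp53 cocultures, against 157 and 154 in the shp53 mixes. Its difference was -0.64 ± 0.17 (SE).

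Fnip1, a folliculin partner in the control of Tfe3, had the smallest p of these genes for shTop1 against shp53, with -0.32 ± 0.069 (SE, limma adjusted p = 0.703). Its signal was 1599 and 1613 in the shTop1 cocultures and 1584 and 1662 in the shTop1 mixes, against 2400.2 and 2191 in the shp53 cocultures and 1801 and 1776 in the shp53 mixes. All 4 shTop1 arrays were below all 4 shp53 arrays, which held for 1 of the 71 further genes (1.41%, against 1.07% of all genes). Next came Atp6v0e2 (0.28 ± 0.083) and the dipeptidyl peptidase Ctsc (-0.21 ± 0.075, SE).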
